A study of Mus musculus with 36 samples.

Results

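Txnip (thioredoxin-interacting protein) and 4 related alpha-arrestins, Arrdc1, Arrdc2, Arrdc3 and Arrdc4 (arrestin domain containing proteins), were followed in epididymal white adipose tissue, the visceral fat depot beside the epididymis. The members were all non-control probes that carry 1 of these 5 gene names, which gave 7 probes of 41174 on the array: 2 each for Txnip and Arrdc4 and 1 each for the other genes. The family was chosen by the measured difference between restricted and ad libitum feeding (HF-DR against HF-AL), so every difference of a member between the restricted group and another group is given as a description with no p-value. The tissue came from 36 adult male C57BL/6J mice, 12 per group, that all ate a purified high-fat diet (30 energy% fat) ad libitum for 3 weeks. The t=0 mice were killed then, the HF-AL mice stayed on free access for 12 further weeks, and the HF-DR mice spent those 12 weeks on a ration of 70 en% of the same diet, with extra vitamins and minerals mixed in. The hour of killing and the time since the last meal are not given in the sources used here. HF-AL mice had both 12 more weeks of diet and 12 more weeks of age than t=0 mice, and these cannot be told apart. Each animal's RNA (Cy5) was hybridised on its own array against a pool of all samples (Cy3), so a value is a log2 ratio of the animal to the pool, and 0 is the level of the pool.

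Alpha-arrestins are adaptor proteins with a pair of arrestin folds and a tail with PPxY motifs, by which they bring ubiquitin ligases of the NEDD4 family to membrane proteins and so send these into the cell. Txnip binds and inhibits thioredoxin and promotes the internalisation of the glucose transporters Slc2a1 (GLUT1) and Slc2a4 (GLUT4), so it restrains glucose uptake. Its own transcription is raised by glucose through Mondo proteins (MondoA, gene Mlxip, and ChREBP, gene Mlxipl) that bind carbohydrate response elements together with Mlx. Arrdc4 is the closest relative of Txnip in this respect and also limits glucose uptake. Arrdc3 dampens beta-adrenergic signalling in fat, and Arrdc1 drives the budding of small vesicles from the plasma membrane. The role of Arrdc2 is less well known.

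The promoters of the 3 members whose values differed most between groups are printed, since the element that links Txnip to glucose is visible in its sequence. Each is the 250 bases just before the transcription start, from RefSeq on GRCm38.p6, read 5′ to 3′ along the gene's own strand. Capitals mark matches to the motifs searched on both strands: CACGTG, the pair of a carbohydrate response element (a pair of 6-base blocks, each CACGNG or CNCGTG, with exactly 5 bases between them), the forkhead motif TGTTTAC, the cyclic AMP element TGACGTCA and CCAAT. Txnip lies on chr3:96557707-96557956 (plus strand), Arrdc3 on chr13:80883134-80883383 (plus strand, the first of 3 annotated starts) and Arrdc4 on chr7:68749239-68749488 (minus strand).
Txnip: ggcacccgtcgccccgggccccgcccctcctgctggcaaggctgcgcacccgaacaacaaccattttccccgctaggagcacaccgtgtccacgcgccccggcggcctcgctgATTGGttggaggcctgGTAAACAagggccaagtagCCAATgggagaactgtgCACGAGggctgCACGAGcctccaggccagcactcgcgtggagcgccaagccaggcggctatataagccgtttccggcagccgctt
Arrdc3: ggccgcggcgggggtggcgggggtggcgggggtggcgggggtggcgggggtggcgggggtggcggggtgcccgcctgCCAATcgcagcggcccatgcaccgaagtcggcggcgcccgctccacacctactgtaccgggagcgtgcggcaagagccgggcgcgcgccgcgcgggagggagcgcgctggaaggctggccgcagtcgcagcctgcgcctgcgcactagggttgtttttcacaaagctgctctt
Arrdc4: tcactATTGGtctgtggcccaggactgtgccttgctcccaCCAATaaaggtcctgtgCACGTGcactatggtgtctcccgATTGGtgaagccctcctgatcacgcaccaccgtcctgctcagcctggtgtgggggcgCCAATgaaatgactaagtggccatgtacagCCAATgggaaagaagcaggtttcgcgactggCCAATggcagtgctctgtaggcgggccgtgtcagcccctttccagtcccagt

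The Txnip window held 1 carbohydrate response element pair, from 85 to 69 bases before the start, which is there as CACGAG on both sides of the 5 bases. Such a pair occurred in 24 of the 32851 windows in the table (0.0731%), and in no window of another member. Txnip also held the forkhead motif on the reverse strand, 121 to 115 bases before the start (3.17% of all windows), and 2 CCAAT boxes (33.8% of all windows). The Arrdc4 window held CACGTG from 193 to 188 bases before the start, a motif found in 6.02% of windows, and 6 CCAAT boxes. Arrdc3 held 1 CCAAT box at its first start, the same box at its second and none at the third, Arrdc2 held 3 and Arrdc1 held none of the motifs. TGACGTCA, present in 1.55% of windows, was in none of the members' windows. These are matches of letters, not measured binding.

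All 7 member probes passed the filter on dim probes, and were well above background in Cy5 on all 36 arrays, except that Arrdc1 was so on 35. None was saturated on any array. Arrays differed in depth of signal: between 44.8% (HF-DR 5) and 86.4% (t=0 2) of all probes were well above background, and the median net Cy5 signal lay between 54.4 and 322. All 10 listed markers of mature adipocytes were well above background on all 36 arrays. Some arrays also carried RNA of the male reproductive tract. Seminal vesicle genes were high on t=0 6 and HF-DR 7, 8 and 9 and sperm genes on HF-AL 5, 7 and 9, and differences without these 7 arrays are also given for each member. The arrays lay on 21 slides, of which 3 held both HF-DR and HF-AL, 9 HF-AL and t=0, and 6 HF-DR and t=0.

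Txnip was highest at the start, lower after 12 more weeks of free feeding and lowest after 12 weeks of restriction. With the first probe (mm8 chr3:96646629-96646688, Txnip transcript), the t=0 mice ran from -0.11 through a median of 0.25 to 0.79. The HF-AL mice ran from -0.70 through -0.28 to 0.36. The HF-DR mice ran from -1.99 through -1.60 to -1.36. All 12 HF-DR mice were therefore below every mouse of both other groups, while HF-AL and t=0 overlapped, with 9 of 12 HF-AL mice below the lowest t=0 mouse. The group means were 0.32 ± 0.24, -0.20 ± 0.31 and -1.63 ± 0.20 (SD, n = 12 each).

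**Figure D1:**
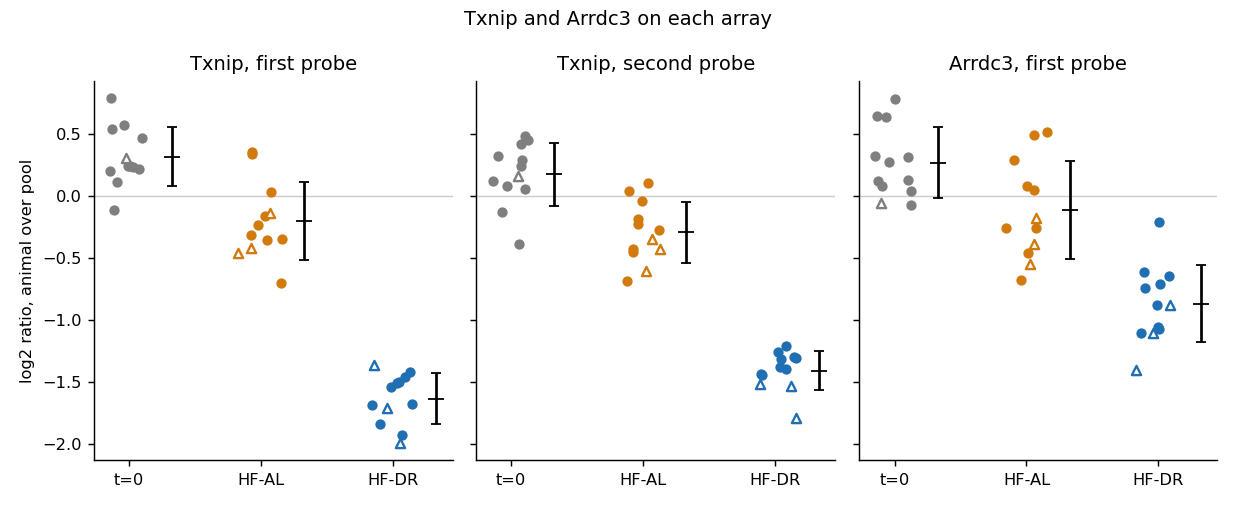
Log2 ratio of each animal to the pool for both Txnip probes and the Arrdc3 probe, by group; circles are arrays, open triangles the 7 arrays with transcripts of the male tract, and the bars beside them the mean ± SD (n = 12). The 12 HF-DR mice lie below every other mouse for Txnip (first probe, -1.99 to -1.36), and HF-AL lies between HF-DR and t=0.

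The second Txnip probe lies on the 5′ side of the first, and its 60 bases are spread over 175 bases of genome (mm8 chr3:96644567-96644741), so it reads across a gap in the genome. It gave -0.38, 0.20 and 0.49 in t=0 (lowest, median and highest), -0.68, -0.31 and 0.11 in HF-AL, and -1.79, -1.39 and -1.21 in HF-DR. The order of the groups was the same as with the first probe, and again no HF-DR mouse overlapped another group. Within a group, the values of both probes also correlated, most clearly in HF-AL (Pearson r = 0.90 across the 12 mice, against 0.60 in t=0 and 0.50 in HF-DR).

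The comparison of HF-AL with t=0 was not the one that chose the family, though it shares the HF-AL arrays with that one. Earlier results of these data were known when the members were chosen. Txnip was 1.43-fold lower in HF-AL than in t=0, after the 12 weeks of free feeding. The difference in log2 ratio was -0.52 ± 0.10 (SE; limma, Benjamini-Hochberg adjusted p = 0.0068 over 16512 genes). Only 115 genes (0.696% of those tested) passed in this comparison, 77 of them higher (0.466%) and 38 lower (0.23%), and Txnip ranked 33 from the lowest difference. Groups that did not overlap were rarer still, at 0.0424% of genes (0.0242% higher, 0.0182% lower), and no member was among them. Txnip was the 1 member of 5 that passed. The split of higher and lower genes moved with the processing: it was 93 and 116 with the scanner's processed signals, 52 and 66 with the series matrix values and 71 and 14 with outlying dark spots kept in the background correction. Fitted over all 24724 probes as rows, the second probe gave -0.47 ± 0.09 (limma, adjusted p = 0.00639). Of the 9 slides that held both groups, the HF-AL array was below the t=0 array on 8 with the first probe, with differences from -1.24 to 0.03, and on 9 with the second, from -0.97 to -0.04. Over 13 other settings of the analysis the difference of the first probe stayed between -0.59 and -0.47 with an adjusted p (limma) of 0.00304 to 0.0421. For the second probe the adjusted p rose to 0.0883 when the dark spots were kept in.

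The difference between HF-DR and HF-AL, the one the choice rests on, was larger. It was -1.43 ± 0.10 (SE) with the first probe, 2.70-fold lower in HF-DR, and -1.11 ± 0.09 with the second, 2.17-fold lower. Against t=0 the HF-DR values were -1.95 ± 0.10 and -1.58 ± 0.09, or 3.87-fold and 3.00-fold lower. Both comparisons use the same HF-DR arrays, and the first shares the HF-AL arrays with the tested comparison above. On the 3 slides that carried HF-DR and HF-AL side by side, the first probe differed by -1.87, -1.86 and -1.07. When log ratios were scaled to the same spread on every array, the first probe's difference from HF-AL was -1.12 and the second's -0.84.

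Arrdc3 followed the same order of groups as Txnip with smaller steps. Its probe lies on mm8 chr13:81359418-81359477 (plus strand). The t=0 mice ran from -0.07 through 0.20 to 0.78, the HF-AL mice from -0.68 through -0.22 to 0.52, and the HF-DR mice from -1.40 through -0.88 to -0.21. No HF-DR mouse overlapped t=0, and 9 of the 12 were below every HF-AL mouse. The difference between HF-DR and HF-AL was -0.76 ± 0.13 (SE), 1.69-fold lower in HF-DR, and that between HF-DR and t=0 was -1.14 ± 0.13. The HF-AL and t=0 means of Arrdc3 differed by -0.38 ± 0.13 (95% interval -0.65 to -0.11 before any adjustment), which did not pass the test (limma, adjusted p = 0.171, and 0.0749 to 0.441 over the other settings). Its rank from the lowest difference in that comparison was 89 of 16512, and 7 of 12 HF-AL mice were below every t=0 mouse.

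Arrdc3 was also the member that varied most between mice of a group. Its pooled within-group SD of 0.34 stood at percentile 89.8 of all genes tested, whose median SD was 0.17. The pooled SD of Txnip (first probe) was 0.26 (percentile 78.5), and those of Arrdc1, Arrdc2 and Arrdc4 (first probe) were 0.24, 0.21 and 0.22 (percentiles 75.2, 66.2 and 69.9).

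Whether Txnip and another member moved together from mouse to mouse was tested within each group, 12 relations in all, with 12 mice each. Txnip and Arrdc3 were related in the t=0 mice (Pearson r = 0.77, two-sided permutation p = 0.00312, adjusted p = 0.0374), and r was 0.76 without the 2 mice farthest from the median of Txnip. By rank the relation did not pass (Spearman rho = 0.57, permutation p = 0.0557, adjusted p = 0.669). In HF-AL r was 0.39 (permutation p = 0.207, adjusted p = 0.882) and in HF-DR -0.06 (permutation p = 0.841, adjusted p = 0.991). Whether r differed between groups was not tested. The 9 relations of Txnip with Arrdc1, Arrdc2 and Arrdc4 had r between -0.38 and 0.10, and none passed (permutation, adjusted p of at least 0.882). Txnip and Arrdc4 were each read with their first probe here.

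The 2 probes of Arrdc4 went in opposite directions in the restricted mice. The first probe, designed on transcript variant 1, lies on mm8 chr7:68610532-68610591 (minus strand) and is the brighter of the pair, so it stands for the gene in counts over all genes. It ran from -0.30 through -0.04 to 0.37 in t=0, from -0.16 through 0.11 to 0.51 in HF-AL and from -0.47 through -0.16 to 0.37 in HF-DR. The 3 groups overlapped, and HF-DR was lower than HF-AL by a difference of -0.29 ± 0.09 (SE). Against t=0 the HF-DR difference was -0.16 ± 0.09, with a 95% interval of -0.34 to 0.02 that includes 0.

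The second probe, designed on transcript variant 2, lies on the 5′ side of the first, and its outer end is 8143 bases from that of the first (mm8 chr7:68618401-68618675). Its 60 bases are spread over 275 bases of genome. It ran from -0.33 through -0.01 to 0.09 in t=0, from -0.26 through -0.07 to 0.36 in HF-AL and from 0.33 through 0.66 to 1.01 in HF-DR. All 12 HF-DR mice were above every t=0 mouse and 11 of 12 above every HF-AL mouse. HF-DR was higher than HF-AL by 0.67 ± 0.07 (SE), 1.60-fold, and higher than t=0 by 0.72 ± 0.07, 1.65-fold.

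Nor did both probes follow each other among mice of a group: r between them was -0.16 in t=0, 0.30 in HF-AL and -0.43 in HF-DR (12 mice each). With the values of both probes averaged, Arrdc4 was higher in HF-DR than in HF-AL by 0.19, the reverse of the first probe alone. Arrdc4 was not alone in this, since 481 of 5769 genes with several measured probes (8.34%) had probes that passed in both directions in this comparison. On the 3 slides with HF-DR and HF-AL, the first probe differed by -0.46, -0.01 and 0.17 and the second by 0.28, 0.60 and 0.85. Neither probe passed the test between HF-AL and t=0 (first 0.13 ± 0.09 SE, adjusted p = 0.552; second 0.05 ± 0.07, adjusted p = 0.836; limma).

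**Figure D2:**
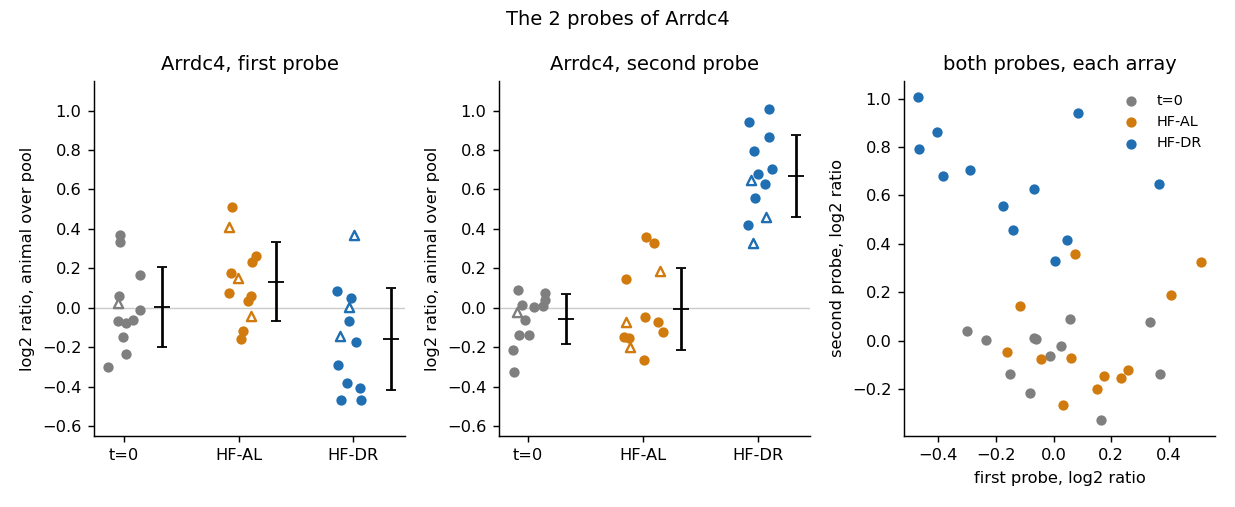
Log2 ratio of each animal to the pool for the first and the second Arrdc4 probe by group, with mean ± SD (n = 12; open triangles are the arrays with transcripts of the male tract), and, at the right, the second probe plotted against the first for each of the 36 arrays. HF-DR mice sit at 0.33 to 1.01 with the second probe, above all t=0 mice, and at -0.47 to 0.37 with the first.

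Arrdc1 is the vesicle-budding member, and its values moved with some of the male tract arrays. Its probe lies on mm8 chr2:24747563-24747622 (minus strand). The t=0 mice ran from -0.18 through -0.04 to 0.16, the HF-AL mice from -0.33 through -0.10 to 0.34 and the HF-DR mice from -0.45 through -0.32 to 0.67. Most HF-DR mice lay low, 9 of 12 below every t=0 mouse, but the mice HF-DR 8 and 9 read 0.67 and 0.38 and were the highest of all. Those are the arrays with the most seminal vesicle RNA, and HF-AL 7 and 9, which carried sperm RNA, were the highest arrays of their group at 0.34 and 0.29. The remaining marked arrays, t=0 6, HF-DR 7 and HF-AL 5, read -0.18, -0.14 and 0.01. The difference between HF-DR and HF-AL was -0.15 ± 0.10 (SE) with all arrays, -0.23 ± 0.06 without the 7 male tract arrays and -0.30 ± 0.08 with slide as a block. That between HF-DR and t=0 was -0.14 ± 0.10, -0.31 ± 0.05 and -0.27 ± 0.07 in the same order, so HF-DR was lower each time. Over 13 other settings both differences lay between -0.31 and -0.07. Without the sperm arrays alone, the HF-DR and HF-AL difference was -0.07 ± 0.10, and without the seminal vesicle arrays alone -0.31 ± 0.07. For HF-AL against t=0 it was 0.01 ± 0.10 (limma, adjusted p = 0.982), and -0.09 ± 0.05 without those arrays (adjusted p = 0.478 over all probes).

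Arrdc2 moved with the sperm arrays too. Its probe lies on mm8 chr8:73764538-73764597 (minus strand). The t=0 mice ran from -0.02 through 0.21 to 0.26, the HF-AL mice from -0.13 through 0.04 to 0.81 and the HF-DR mice from -0.34 through -0.15 to 0.34. The highest HF-AL values, 0.81 and 0.62, were those of HF-AL 9 and 7. HF-DR was below HF-AL by a difference of -0.27 ± 0.09 (SE) with all arrays, and by one of -0.08 ± 0.07 without the male tract arrays. Against t=0 the HF-DR difference was -0.30 ± 0.09, and -0.24 ± 0.06 without them. With slide as a block these differences were -0.21 ± 0.13 and -0.19 ± 0.11. HF-AL differed from t=0 by -0.03 ± 0.09 (limma, adjusted p = 0.917), and by -0.16 ± 0.06 without the male tract arrays (adjusted p = 0.191).

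**Figure D3:**
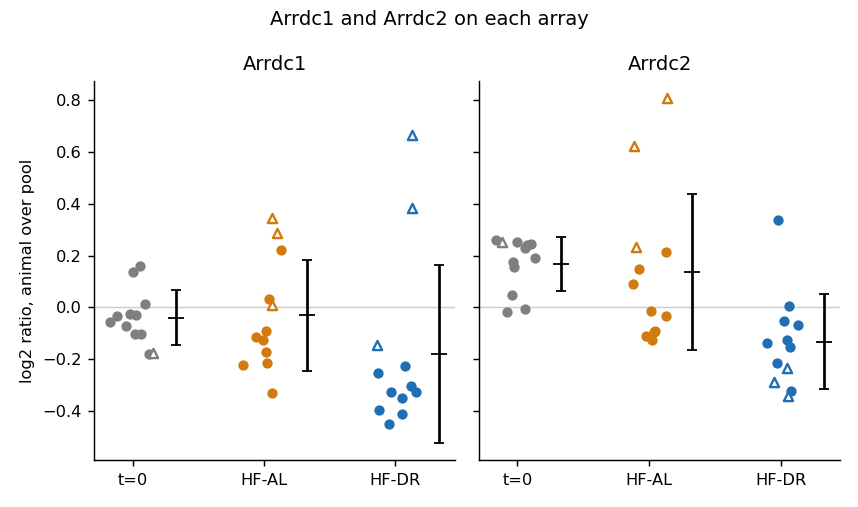
Log2 ratio of each animal to the pool for Arrdc1 and Arrdc2 by group, with mean ± SD (n = 12). Open triangles are the 7 arrays with transcripts of the male tract: the highest HF-DR mice for Arrdc1 (0.67 and 0.38) and the highest HF-AL mice for Arrdc2 (0.81 and 0.62) are among them.

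Without those 7 arrays the values of the other members moved less. The Txnip difference between HF-DR and HF-AL was then -1.46 ± 0.12 (SE) with the first probe, that of Arrdc3 was -0.76 ± 0.14, and those of the first and second Arrdc4 probes were -0.36 ± 0.10 and 0.73 ± 0.08. The tested difference of Txnip between HF-AL and t=0 was -0.47 ± 0.11 (limma, adjusted p = 0.0269).

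**Figure D4:**
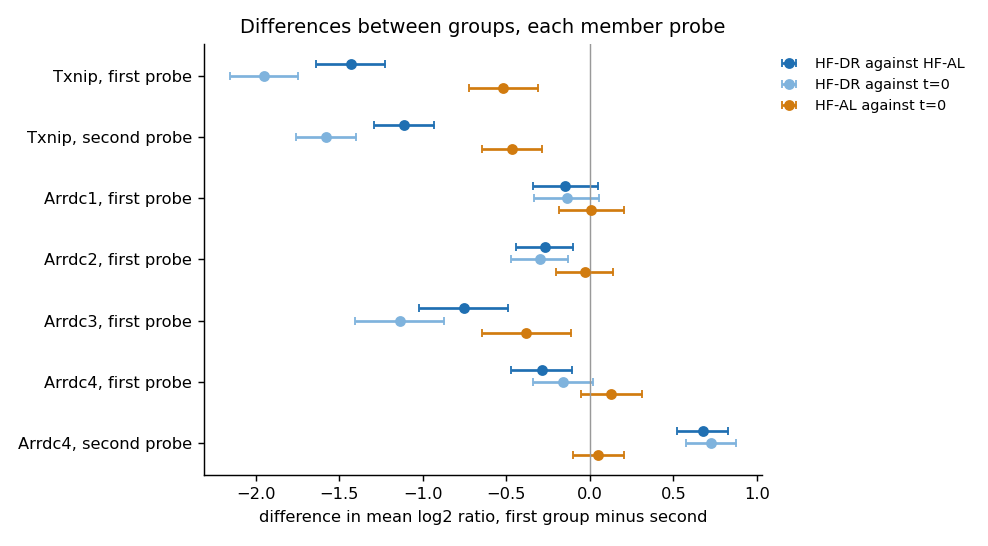
Difference in mean log2 ratio between groups for each of the 7 member probes, first-named group minus the second, with 95% intervals (limma, all probes as rows, n = 12 per group). Txnip and Arrdc3 lie below 0 in all 3 comparisons, and the Arrdc4 probes lie on opposite sides of 0 in both comparisons with HF-DR. For HF-DR against t=0 the interval of the first Arrdc4 probe includes 0 (-0.34 to 0.02).

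In all, 4 of the 5 member genes were among the genes past the threshold between HF-DR and HF-AL, where 64.7% of all genes tested were (28.8% higher and 35.9% lower). Of all genes, 14.4% had groups that did not overlap, 8.18% with HF-DR lower and 6.26% with HF-DR higher. The gene outside the 4 was Arrdc1, but with slide as a block, or without the male tract arrays, it was Arrdc2 instead. Since this contrast chose the family, nothing is read from the count or from which members are in it. Against t=0, 61.7% of genes passed (28.8% higher, 33% lower) and 16.6% did not overlap (9.05% lower, 7.53% higher).

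The genes most like each member were found from the deviations of each mouse from its group mean, over all 36 arrays (Pearson r, a description). For Txnip they were Snrnp48, a subunit of the minor spliceosome (r = 0.69), Bsdc1 (0.67, over 34 arrays), Zfp68 (0.67), Cited2, a partner of the coactivators CBP and p300 (0.64), BC106180 (0.63) and Fermt2, an activator of integrins (0.61). Cited2 had mean log2 ratios of 0.38 in t=0, -0.30 in HF-AL and -1.54 in HF-DR. It thus had the same order of groups as Txnip, with a difference of -0.68 ± 0.14 (SE) between HF-AL and t=0 and of -1.24 ± 0.14 between HF-DR and HF-AL. Snrnp48, Bsdc1 and Fermt2 had that order too, with smaller differences. Zfp68 and BC106180 did not. Zfp68 differed by 0.008 ± 0.055 between HF-DR and HF-AL, and BC106180 by 0.018 ± 0.065 between HF-AL and t=0. Txnip and Cited2 had r = 0.71 in t=0, 0.84 in HF-AL and 0.13 in HF-DR.

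For Arrdc3 the most alike genes were Rpap2 (r = 0.75), 4930523C07Rik (0.73) and Tns1 (0.72), a link between integrins and actin. For the first Arrdc4 probe they were Cbx1 (0.76), a heterochromatin protein, Prr14l (0.74) and Madd (0.73). For Arrdc1 they were Zzz3 (0.92), Ptprk (0.91) and the glucose transporter Slc2a1 (0.91). These last values came largely from the male tract arrays: without them Slc2a1 had r = 0.48, Ptprk 0.51 and Zzz3 0.61 over 29 arrays. The same held for Arrdc2, whose likest genes Slc37a4 (the glucose-6-phosphate transporter, 0.84), ENSMUSG00000054618 (0.82) and Kifc3 (0.82) had r of 0.56, 0.46 and 0.44 without them. Without those arrays r was 0.68 for Txnip and Snrnp48, 0.64 for Txnip and Cited2 and 0.72 for Arrdc3 and Rpap2.

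The genes around the family were counted in 11 lists of pathway genes, 88 in all, of which 80 were measured. Of all genes tested, 28.8% rose and 35.9% fell between HF-DR and HF-AL, the shares to set beside the counts of each list. Among the glucose-sensing regulators, Mlxipl (ChREBP) was higher in HF-DR than in HF-AL by 1.88 ± 0.12 (SE; limma, adjusted p = 2.84e-16) and its partner Mlx by 1.86 ± 0.09 (adjusted p = 6.08e-19). Max rose by 0.37 ± 0.05 (adjusted p = 2.37e-07), while Mlxip (MondoA) fell by 0.24 (SE 0.06; adjusted p = 0.000247). Of the 6 regulators 3 rose and 2 fell, with a median difference of 0.13 against -0.04 over all genes.

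Other listed targets of carbohydrate response elements, the element found in the Txnip promoter, were mostly higher in HF-DR. Of 17 measured, 13 rose against HF-AL (limma) and none fell, and the median difference was 2.50. The 3 with the smallest adjusted p were the fatty acid elongase Elovl6 at 5.20 ± 0.15 (SE; adjusted p = 8.61e-26), the fructose transporter Slc2a5 at 4.89 ± 0.23 (adjusted p = 1.51e-19) and the secreted lipase inhibitor Angptl8 at 3.31 ± 0.10 (adjusted p = 3.45e-25). Klf10, which did not pass, read -0.18 ± 0.09. Of the 15 targets with a promoter window, 1, Pklr, held the pair seen in the Txnip window, and Pklr did not pass the filter on dim probes. CACGTG was in the windows of 3 of them, Khk, Fgf21 and G6pc3.

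Among the proteins that Txnip and Arrdc4 act on, Slc2a4, the insulin-regulated glucose transporter, rose by 1.25 ± 0.12 (SE; limma, adjusted p = 5.29e-11), and Slc2a1 read -0.10 ± 0.28 (adjusted p = 0.761). Of 8 thioredoxin system genes 5 rose and 2 fell (median 0.30): Srxn1, which repairs oxidised peroxiredoxins, rose by 0.88 ± 0.08 (adjusted p = 6.2e-12), Txnl1 rose by 0.48 ± 0.06 (adjusted p = 5.52e-09) and Txndc17 fell by 0.43 (SE 0.05; adjusted p = 3.15e-10).

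Of 10 measured ubiquitin ligases and adaptors of the NEDD4 family, which alpha-arrestins recruit, 5 fell and none rose (limma). Itch, the ligase of Txnip itself, fell by 0.54 (SE 0.05; adjusted p = 3.41e-11), the adaptor Ndfip1 fell by 0.45 (SE 0.10; adjusted p = 0.000125) and Nedd4 fell by 0.38 (SE 0.14; adjusted p = 0.0152). The call of Nedd4 was lost with slide as a block, at -0.08 (adjusted p = 0.749).

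Of the 5 adrenergic receptors and beta-arrestins, the setting in which Arrdc3 acts, 4 fell and none rose. Arrb1 fell by 1.11 (SE 0.14; limma, adjusted p = 7.56e-09), Adrb3, the main beta receptor of mouse fat cells, fell by 0.59 (SE 0.09; adjusted p = 3.77e-07) and Arrb2 fell by 0.37 (SE 0.06; adjusted p = 5.91e-07). Other arrestin-fold genes changed by less: of 4 measured, Vps26b rose by 0.16 ± 0.05 (adjusted p = 0.0059), Vps26c fell by 0.31 (SE 0.06; adjusted p = 3.68e-05) and Rgp1 fell by 0.21 (SE 0.06; adjusted p = 0.00235). With slide as a block Vps26b read 0.10 (limma, adjusted p = 0.288) and Rgp1 -0.16 (adjusted p = 0.212), and neither passed. Among 5 partners of Arrdc1 in vesicle budding 2 rose and 1 fell: Vps4a rose by 0.39 ± 0.04 (adjusted p = 5.11e-10), Tsg101 rose by 0.26 ± 0.06 (adjusted p = 0.000118), and Pdcd6ip (Alix) fell by 0.31 (SE 0.08; adjusted p = 0.00116).

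Of 12 measured genes of the FOXO and glucocorticoid responses, pathways known to act on Txnip, 5 fell and 2 rose. Over all genes 35.9% fell and 28.8% rose. Tsc22d3, Fkbp5, Per1, Klf9 and Ddit4 did not pass (limma, adjusted p of at least 0.057). Sesn3 fell by 1.19 (SE 0.09; limma, adjusted p = 7.75e-14), Foxo1 itself fell by 0.78 (SE 0.09; adjusted p = 1.91e-09), Sesn1 fell by 0.75 (SE 0.05; adjusted p = 1.72e-15) and Cdkn1a rose by 1.08 ± 0.17 (adjusted p = 8.15e-07). Of the 6 subunits of AMPK, the kinase that marks Txnip protein for degradation, 4 rose and 2 fell: Prkaa1 fell by 0.81 (SE 0.06; adjusted p = 8.6e-14), Prkab2 fell by 0.62 (SE 0.05; adjusted p = 9.26e-14) and Prkab1 rose by 0.44 ± 0.05 (adjusted p = 6.28e-09). Of 5 measured inflammasome genes, a pathway that Txnip has been tied to, Il18 fell by 0.79 (SE 0.09; adjusted p = 2.72e-09), Gsdmd fell by 0.41 (SE 0.08; adjusted p = 1.92e-05) and none rose. In each list with no rise or no fall in this comparison, limma also found 0 in that direction at an unadjusted p under 0.05, except that 1 testis and sperm gene was lower. Without the male tract arrays the counts became 3 up and 1 down for the regulators, 14 and 0 for the targets of carbohydrate response elements, 2 and 6 for the FOXO and glucocorticoid list, 5 and 1 for the thioredoxin system, 1 and 4 for the NEDD4 family, 2 and 2 for both the vesicle partners and the arrestin-fold genes, and 0 and 3 for the inflammasome genes. Slc2a1 passed as lower without those arrays, and also with slide as a block.

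Between HF-AL and t=0, where Txnip passed, none of the 80 measured pathway genes passed in either direction (limma, adjusted p). At an unadjusted p under 0.05, 4 were higher and 8 lower. With slide as a block, or without the male tract arrays, 2 passed as higher, Pnpla3 and Angptl8, both listed targets of carbohydrate response elements.

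In whole tissue, fewer cells of a type and less RNA per cell cannot be told apart. Cell type markers also differed in the restricted mice, many of them lower, as Txnip and Arrdc3 were. Of all genes tested, 35.9% were lower in HF-DR than in HF-AL and 28.8% higher. All 10 fibroblast and preadipocyte markers fell between HF-DR and HF-AL (median difference -0.98), as did 9 of 10 macrophage markers (-0.58), 6 of 10 mature adipocyte markers (-0.57), 4 of 6 mesothelial markers (-0.42) and 4 of 8 endothelial markers (-0.21), where 1 endothelial marker rose. With slide as a block the mature adipocyte markers split into 3 that rose and 4 that fell, and 2 mesothelial markers fell. Without the male tract arrays 2 mature adipocyte markers rose and 6 fell. The mean over the fibroblast markers ran from 0.03 to 0.44 in t=0, 0.04 to 0.32 in HF-AL and -1.59 to -0.79 in HF-DR, so HF-DR did not overlap the others, as with Txnip. The mean over the macrophage markers ran from -0.20 to 0.56, -0.27 to 0.29 and -1.27 to -0.29 in the same groups, and that over the mature adipocyte markers from 0.08 to 0.55, -0.17 to 0.45 and -1.20 to -0.004. T and B cell markers went up instead, with 3 of 6 rising (median 0.18). Of the seminal vesicle and epididymis genes 3 of 5 rose (median 2.19), and none passed without the male tract arrays, while 1 of 4 testis and sperm genes rose (median -0.47). Between HF-AL and t=0, where Txnip fell, none of 44 markers of the first 5 cell types passed the test (limma), and at an unadjusted p under 0.05, 1 was higher and 7 were lower. With slide as a block 1 of the 10 mature adipocyte markers passed as lower, and 7 were lower at an unadjusted p under 0.05 (median -0.23, against -0.13 without the block). The part of cell makeup in the members' values was not tested.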

How the data were processed

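Epididymal fat of 36 mice was measured on 36 Agilent 4x44k arrays of 2 colours, with 500 ng of RNA per animal. The authors scanned and quantified them with Agilent Feature Extraction (version 9.5.3.1, per the submitters' processing notes), and the values taken from these scans were linear intensity per the file headers: for either dye, the spot's mean pixel signal and its local background median, without normalization. The authors' deposited series matrix holds log2 values that follow the Cy5 signal, with array medians near 9.27, and served as an alternative, as did the scanner's processed signals. Their centring is unknown.

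Background was corrected with normexp (limma, offset 50). Specks, 84 spots with a net signal under -50, were left out of its fit, since they raised the fitted spread over 5 times on 11 arrays. Ratios were normalised by loess (4 iterations, controls at weight 0), flagged spots were dropped, and replicate spots were averaged. Probes well above background in Cy5 on 9 or more arrays of any group entered the tests (24724 probes), and the brightest probe stood for a gene (16512 genes). Probe coordinates are on mm8 per the file headers, and the sequence of the probes was not used here.

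One limma fit over all 36 arrays (version 3.58.1, R 4.3.3, package data.table in version 1.17.8) compared the groups, two-sided with Benjamini-Hochberg adjustment and a threshold of 0.05. It was tested on simulated data. Correlations were tested with 100000 permutations (numpy 2.4.6). The members, gene lists and tests were chosen with earlier results of these data known. Genes named were all members and their probes, up to 3 genes of each pathway list with the smallest adjusted p between HF-DR and HF-AL and up to 1 going the other way, and the 6 genes most like Txnip and 3 most like each other member. Klf10, Slc2a1, Pnpla3, the FOXO and glucocorticoid genes that did not pass and the targets with a motif in their window were named after their values were seen. Arrays were marked for seminal vesicle or sperm genes by thresholds set after seeing the values. Replicate numbers in the labels were not used as pairs in the main fit. Deviations of same-numbered mice correlated above 0.1 in 2 of 12 pairs for t=0 and HF-AL, and in 0 for t=0 and HF-DR. For HF-AL and HF-DR they did so in 9 of 12 pairs (median r = 0.21), and whether these mice were matched is not known. Alternatives were the background and dye correction, scaling, the series matrix, the filter, the probes of a gene, slide and replicate blocks, and leaving out the male tract arrays.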

Additional observations from a re-analysis of the deposited data

How the results depend on the processing

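The order of the groups for Txnip and Arrdc3, and the direction of each Arrdc4 probe on its own in both HF-DR comparisons, held under every alternative run. When both probes were averaged, the first-probe difference of Arrdc4 between HF-DR and HF-AL turned to 0.19, and that between HF-DR and t=0 to 0.28, which follows from the opposite second probe. Scaling the arrays to a common spread gave Txnip -1.12 (first probe) and -0.84 (second probe) against HF-AL, and -1.35 for the second probe against t=0. The scanner's processed signals gave the second Arrdc4 probe 0.88 against HF-AL and 0.93 against t=0. With the specks kept in normexp, the second Txnip probe lost its call between HF-AL and t=0, at -0.42 (adjusted p = 0.0883).

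The count of genes passing between HF-AL and t=0 was 115 and moved to 209 with processed signals, 71 without the filter, 513 with scaling, 197 without the male tract arrays, 343 without the seminal vesicle arrays and 71 without the sperm arrays. The causes were not tested. With the replicate number as a block, 126 genes passed between HF-AL and t=0, and Txnip stood at -0.52 (limma, adjusted p = 0.0168). Same-numbered mice of HF-AL and t=0 had a median r of 0.02. Of 348 values under alternatives, 334 were close to the main result. That meant staying on its side of the threshold or within the spread between mice, or, for a count of genes, near the main count. The scaling, all-probe, seminal vesicle and sperm alternatives were chosen after seeing the data. Slide as a block within a group was not run for the correlations, since each slide holds 1 array of a group. Probes near background limit the dim genes, Arrdc1 and Arrdc2 among them, and also the second Arrdc4 probe. Their median Cy5 signals in t=0, before background correction, were 341.5, 360 and 297.9, against 1168.5 for the first Arrdc4 probe.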
